A study of Mus musculus with 6 samples.

Results

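The collagen genes were all rows of the deposited table whose Ensembl identifier belongs, in GENCODE mouse release M21, to a protein-coding gene named Col, a number, a, and a number. They were 44 of the 18254 rows, and none of the collagen genes that the annotation holds under this rule was missing from the table. The values come from RNA sequencing of the medial prefrontal cortex (mPFC) of mice that carry an enhanced green fluorescent protein (EGFP)-*Shank3* transgene (*Shank3* TG) and of their wild-type (WT) littermates. All mice were males in a C57BL/6J background, 10 to 12 weeks old, and the study asked which genes change in the mPFC when *Shank3*, a scaffold gene of excitatory synapses, is mildly overexpressed. Each genotype had 3 libraries, numbered 1 to 3 and called TG-1 or WT-1 and so on, and each library was a pool of the mPFC of a pair of mice. The replicate is therefore the pool. The promoter that drives the transgene is not given in the sources used here. Values are normalized counts, which are read counts divided by size factors by the authors, and they summed to between 28363967 and 29447717 per library. *Shank3* itself was at 17469.8, 19004 and 16310.4 normalized counts in TG-1, TG-2 and TG-3 and at 8374, 8173 and 6791 in WT-1, WT-2 and WT-3. The groups did not overlap and each library matched its label, and the adjusted p was 0.0643, or 0.000437 with the replicate number as a block (limma). TG-3 and WT-3 stood apart from the other libraries together: their deviations from the genotype means correlated at 0.62 across genes.

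Collagens are secreted or membrane-bound proteins in which 3 chains wind around each other, and the winding requires a glycine at the start of each triplet of amino acids, the Gly-X-Y repeat. Fibrillar collagens (types I, II, III, V, XI, XXIV and XXVII) form banded fibrils of connective tissue, and in the brain they lie mainly in the meninges and around large vessels. Type IV collagens form the sheet of the basement membrane around blood vessels and under the pia. Some collagens are made by neurons themselves, among them type XIX, which acts in synapse formation, and the membrane collagens XXIII and XXV, the latter known from amyloid plaques as CLAC.

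The repeat that defines the family was read from the coding sequence of the longest coding transcript of each gene, and it set the fibrillar chains apart. In the fibrillar chains the longest unbroken run of Gly-X-Y triplets was 216 to 344 triplets, with a median of 338, and the lowest values were those of *Col24a1* (216) and *Col27a1* (217). In the basement membrane chains it was 39 to 66 triplets, although 74.9% to 78.9% of all their codons lay in such runs, so the repeat covers most of these chains and is often interrupted. In the neuronal chains it was 40 to 57 triplets. Stretches of 30 codons (90 bases) are shown for 1 fibrillar, 1 basement membrane and 2 neuronal chains to show that the glycine period is the same in all of them while the letters between differ. They are given 5′ to 3′ in the sense of the gene, from GRCm38 with the GENCODE M21 annotation, without introns, and capitals mark the glycine codons, of which each stretch holds 10.
Col1a1: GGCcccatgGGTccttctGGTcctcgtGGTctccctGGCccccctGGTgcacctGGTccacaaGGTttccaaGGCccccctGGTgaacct
Col4a1: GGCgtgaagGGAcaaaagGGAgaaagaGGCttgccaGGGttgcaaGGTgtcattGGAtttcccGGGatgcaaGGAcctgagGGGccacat
Col19a1: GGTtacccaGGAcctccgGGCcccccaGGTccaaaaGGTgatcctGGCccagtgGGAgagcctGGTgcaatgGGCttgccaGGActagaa
Col25a1: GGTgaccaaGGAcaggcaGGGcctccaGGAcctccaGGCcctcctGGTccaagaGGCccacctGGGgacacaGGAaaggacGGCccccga
The *Col1a1* stretch is coding sequence of 3 exons within chr11:94939451-94939939 (plus strand), that of *Col4a1* of 2 exons within chr8:11247024-11267614 (minus strand) and that of *Col19a1* of 3 exons within chr1:24296778-24301301 (minus strand). The *Col25a1* stretch lies in 1 exon at chr3:130476369-130476458 (plus strand).

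**Figure D1:**
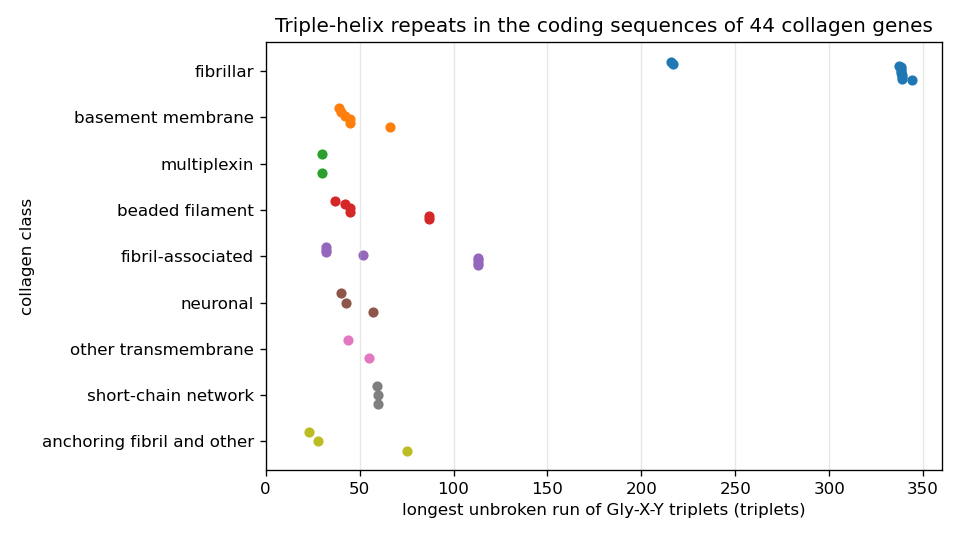
The longest unbroken run of Gly-X-Y triplets (x axis, in triplets) is plotted for each of the 44 collagen genes (1 point per gene), by collagen class (y axis). All 11 fibrillar chains lie at 216 triplets or more, and the basement membrane chains lie at 66 or fewer and the neuronal chains at 57 or fewer.

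Levels of different genes were compared as normalized counts per kb of the longest coding transcript. On this scale the mPFC of both genotypes contained much more of some collagens than of others, and the most abundant ones belonged to different classes. The highest mean over the 6 libraries was that of *Col6a1* (474 per kb), a chain of the beaded filaments around cells, followed by the basement membrane chains *Col4a2* (413) and *Col4a1* (283) and the neuronal chains *Col25a1* (219) and *Col19a1* (217). These 5 genes held 49.9% of the sum per kb of all 44. The ranges of *Col25a1* (181 to 247 per kb) and *Col19a1* (192 to 235) overlapped, so these neighbours in the order are not separated, and the same held for *Col6a1* (389 to 599) and *Col4a2* (316 to 493). The range of *Col4a1* (221 to 333) overlapped those of *Col4a2* and *Col25a1*, so no neighbours among these 5 genes were separated. The highest mean of a fibrillar chain was that of *Col1a2* (137), followed by *Col11a2* (132) and *Col5a1* (109), and the ranges of these 3 overlapped (109 to 164, 113 to 156 and 95.4 to 127 per kb). *Col1a1*, the partner of *Col1a2* in type I collagen, was at 64.3 and *Col3a1* at 31.3. The lowest members were *Col4a4* (2.36 per kb) and *Col10a1* (1.05), the growth plate cartilage collagen. *Col10a1* was at 0.953 to 6.40 normalized counts and was the one member under the mean of 5 that was required for a test.

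**Figure D2:**
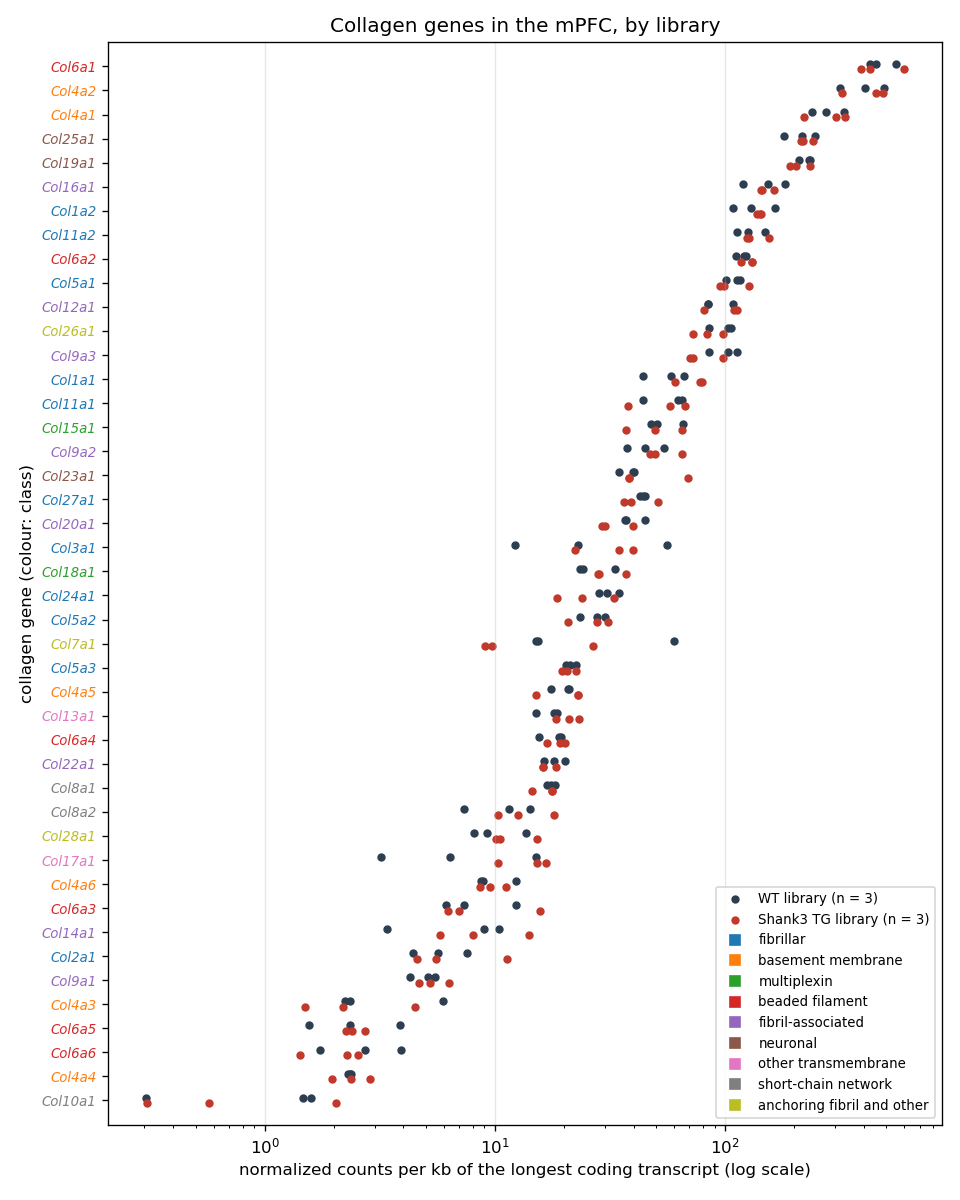
Normalized counts per kb of the longest coding transcript (x axis, log scale) are shown for the 44 collagen genes (y axis, ordered by mean, names coloured by class), with 1 point per library, dark for WT and red for *Shank3* TG. *Col6a1* lies at the top and *Col10a1* at the bottom, and the points of the genotypes overlap in each gene.

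By class, the sum per kb of the 44 genes was shared among basement membrane chains (22.7%), fibrillar chains (20.4%), beaded filament chains (19.5%), neuronal chains (14.9%) and fibril-associated chains (14.1%), with smaller shares for the rest. All collagens together made up 0.0545% to 0.0740% of the normalized counts of a library. The sum of the 11 fibrillar chains was 4328, 4901 and 3787 in TG-1, TG-2 and TG-3 and 4871, 4109.7 and 3795 in WT-1, WT-2 and WT-3. For the 6 basement membrane chains it was 5163, 5591 and 3783 in TG-1, TG-2 and TG-3 and 5581, 4689 and 3863 in WT-1, WT-2 and WT-3. The 3 neuronal chains summed to 2821, 2637 and 2549 in TG-1, TG-2 and TG-3 and 2664, 2849 and 2329 in WT-1, WT-2 and WT-3. In each of the 3 classes the sums of the genotypes overlapped, and TG-3 and WT-3 had the lowest sums of their genotypes.

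No collagen gene passed the test for a genotype difference. With limma on log2(normalized count + 1), 0 of the 43 tested members had a Benjamini-Hochberg adjusted p under 0.05, against 0.0% of the 16714 genes tested, and 0 had an unadjusted p under 0.05, against 2.01% of all genes. The groups overlapped in all 43 members, whereas 6.02% of all genes showed no overlap. Adding the replicate number to the fit as a block left 0 members at an adjusted p under 0.05 (0.00598% of all genes, which is *Shank3* alone) and 4 at an unadjusted p under 0.05, or 9.3% against 4.98% of all genes. These 4 were *Col1a1*, *Col9a3*, *Col17a1* and *Col24a1*, and their adjusted p-values with the block were 0.539, 0.837, 0.892 and 0.952 (limma, Benjamini-Hochberg). Leaving out 1 library gave 0 members at an unadjusted p under 0.05 (without WT-2, 2.18% of all genes) to 3 (without WT-1, 2.27% of all genes), namely *Col1a1*, *Col3a1* and *Col17a1*. TG was on the same side of WT at each of the 3 replicate numbers in 7 members, or 16.3% against 24.8% of all genes: higher in *Col1a1* and *Col17a1* and lower in *Col15a1*, *Col24a1*, *Col26a1*, *Col4a3* and *Col9a3*. The exact permutation test of a single gene cannot fall below 0.1 with 3 libraries against 3, so it was not used for the members.

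The size of a difference that remains possible varied among the members. Fold changes are on the log2(normalized count + 1) scale, which understates those of low genes. The 95% interval of the log2 fold change lay within 1 unit of 0 in 34 of the 43 members and within 0.5 units in 18, in the fit without the replicate block. With the block these counts were 39 and 23. The widest intervals included those of *Col7a1*, *Col17a1*, *Col4a3* and *Col3a1* without the block, and that of *Col3a1* narrowed to -0.22 to 0.86 with it. The median residual SD of the members between libraries of 1 genotype was 0.25 log2 units, against 0.17 over all tested genes, and 36 of the 43 members lay above the median of all genes.

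**Figure D3:**
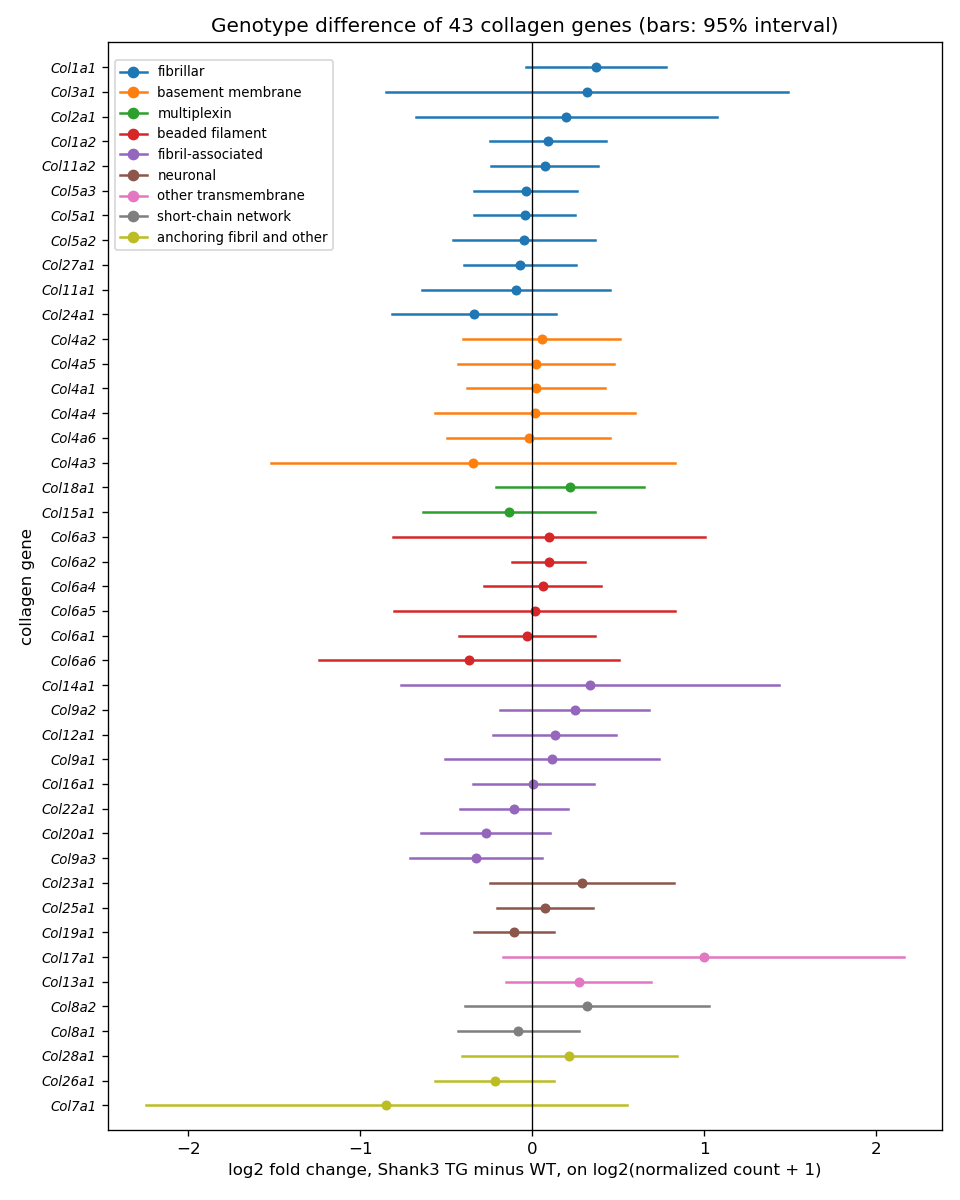
The log2 fold change of *Shank3* TG minus WT (x axis, limma on log2(normalized count + 1)) is shown for the 43 tested collagen genes (y axis, grouped by class) as a point with its 95% interval as a bar. The fit is the one without the replicate block. All 43 bars span 0, whereas 39 do with the block, and the interval of *Col1a1* (-0.03 to 0.78) has its lower end next to 0.

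Among the fibrillar collagens the fold changes lay on both sides of 0. Of the 11 chains 5 had a higher and 6 a lower mean log2 value in TG. The median of their log2 fold changes was -0.04 with a range of -0.34 to 0.37, beside a median of 0.00 over all tested genes. The highest was *Col1a1* (chr11:94936224-94953042), the alpha 1 chain of type I collagen, the main fibril of skin, bone and meninges. It was at 460.1, 468 and 359 normalized counts in TG-1, TG-2 and TG-3 and at 393, 347 and 261 in WT-1, WT-2 and WT-3. TG was higher at each replicate number, but TG-3 lay below WT-1, so the groups overlapped. The log2 fold change was 0.37 (SE 0.18, 95% interval -0.03 to 0.78), with an adjusted p of 0.9999 in limma, and 0.21 to 0.50 when each library was left out. With the replicate block the 95% interval was 0.16 to 0.58, which excludes 0, and the adjusted p was 0.539.

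*Col1a2*, which supplies the alpha 2 chain of the same trimer, was at 764, 761 and 735 normalized counts in the TG libraries and at 878, 693 and 581 in the WT libraries, in the order of their numbers. The TG libraries lay within the WT range, and the log2 fold change was 0.09 (SE 0.15, 95% interval -0.24 to 0.43). *Col3a1*, the collagen of vessel walls and reticular fibres, was at 222, 192 and 124 in TG and at 312, 127 and 67.7 in WT. The WT libraries alone spanned a 4.61-fold range that held all TG libraries, and the residual SD of *Col3a1* exceeded that of 96.1% of all tested genes. Its log2 fold change of 0.32 (SE 0.50, 95% interval -0.85 to 1.49) went from -0.20 without WT-3 to 0.90 without WT-1.

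Type V collagen sets the width of type I fibrils, and its chains differed little between the genotypes. *Col5a1* was at 802, 1071 and 834 normalized counts in TG-1, TG-2 and TG-3 and at 979, 848 and 947 in WT-1, WT-2 and WT-3. *Col5a2* was at 183, 204 and 138 in TG and at 199.9, 184 and 155 in WT, and *Col5a3* at 119, 137 and 126 and at 138, 124 and 129.8. For all 3 chains the groups overlapped, and the log2 fold changes were -0.04, -0.05 and -0.04. *Col11a1*, a chain of the type XI fibrils of cartilage and the inner ear, was at 515, 443 and 289.8 in TG and at 498, 480.0 and 336 in WT. Its lowest value in each genotype was that of the library numbered 3, and its log2 fold change was -0.09 (SE 0.24, 95% interval -0.64 to 0.45).

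The remaining fibrillar chains described by library are those with the shorter triplet run. *Col24a1* (chr3:145292472-145552011), a fibrillar chain known from developing bone and from cortex, was at 171, 235 and 133 normalized counts in TG-1, TG-2 and TG-3 and at 218, 246 and 203 in WT-1, WT-2 and WT-3. It was lower in TG at each number, but TG-2 lay among the WT libraries, with a log2 fold change of -0.34 (SE 0.21, 95% interval -0.82 to 0.14). With the replicate block the 95% interval was -0.64 to -0.04, which excludes 0, and the adjusted p was 0.952 (limma). *Col27a1*, known from cartilage, was at 297, 388 and 276 in TG and at 334, 341 and 325 in WT. The WT values were close together and lay within the TG range, and the log2 fold change was -0.07 (SE 0.14, 95% interval -0.40 to 0.25).

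**Figure D4:**
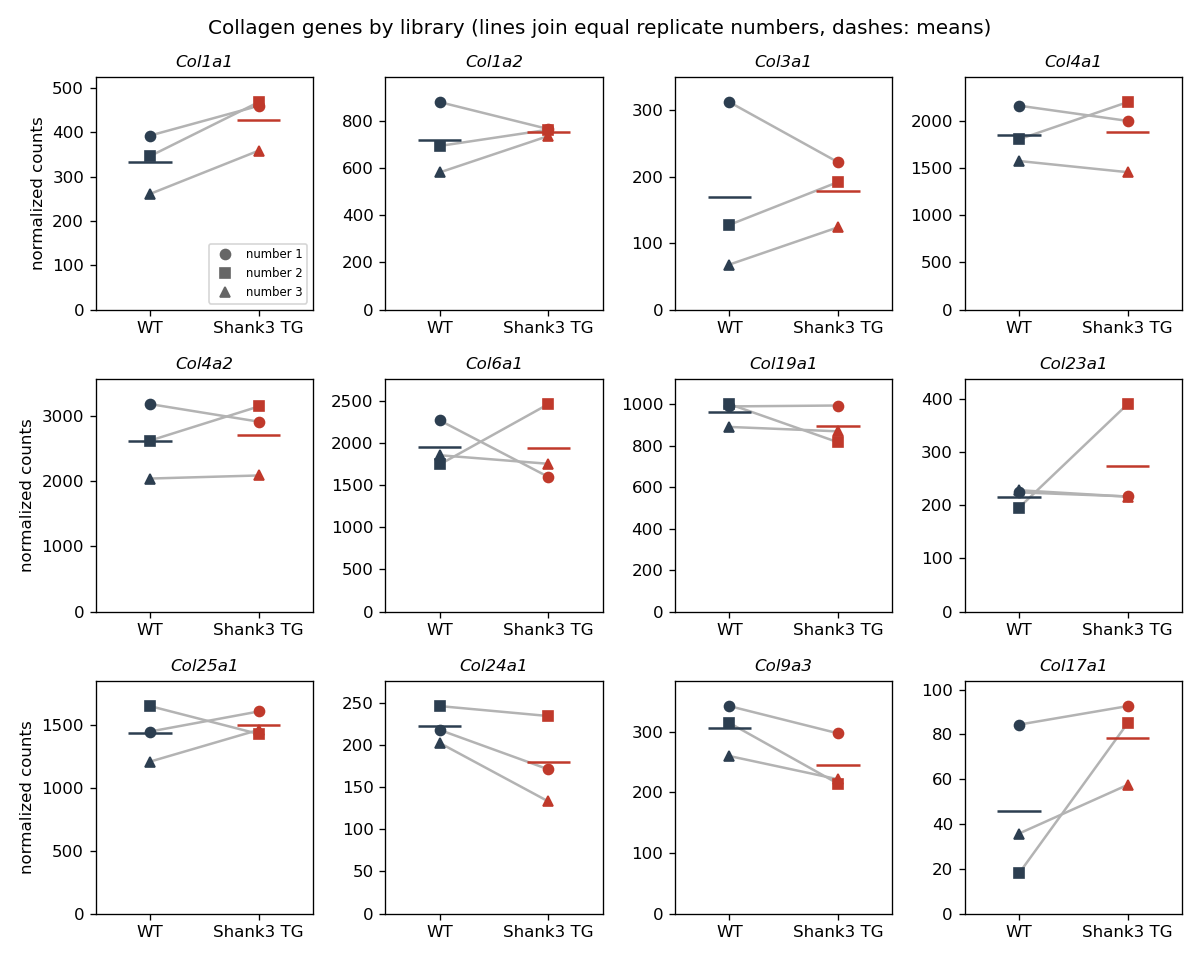
Normalized counts (y axis, from 0) of 12 collagen genes are shown in WT and *Shank3* TG (x axis), with 1 point per library, dashes at the genotype means and grey lines joining libraries of equal replicate number. The lines go up at each number for *Col1a1* and *Col17a1* and down for *Col24a1* and *Col9a3*, and they go both ways for *Col4a1*, *Col6a1* and *Col25a1*.

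The abundant basement membrane chains were at nearly equal means in the genotypes. Of 6 chains 4 had a higher and 2 a lower mean log2 value in TG, and the median was 0.02 on the log2 scale. *Col4a1* (chr8:11198423-11312826) and *Col4a2* (chr8:11312805-11449287) make the heterotrimer of nearly all basement membranes, those of brain vessels included. *Col4a1* was at 2004, 2204 and 1459 normalized counts in TG-1, TG-2 and TG-3 and at 2166, 1808 and 1578 in WT-1, WT-2 and WT-3. *Col4a2* was at 2908, 3142 and 2084 in TG and at 3178, 2618 and 2037 in WT. In both genes the libraries of the genotypes intermixed, with TG-2 and WT-1 high and the libraries numbered 3 low. The log2 fold changes were 0.02 (SE 0.17, 95% interval -0.38 to 0.42) for *Col4a1* and 0.06 (SE 0.20, 95% interval -0.40 to 0.51) for *Col4a2*. The chains of specialised basement membranes, those of kidney and inner ear, had means of 2.36 (*Col4a4*) to 20.0 (*Col4a5*) per kb, against 283 and 413 for *Col4a1* and *Col4a2*. Over the libraries *Col4a3* and *Col4a4* ranged from 12.8 to 51.0 and from 19.7 to 28.9 normalized counts and *Col4a5* and *Col4a6* from 98.6 to 150.3 and from 57.5 to 82.1. Their log2 fold changes were -0.35, 0.02, 0.02 and -0.02, and *Col4a3* had the widest interval of the class (-1.52 to 0.83). Its value went from -0.77 without TG-3 to 0.10 without WT-3, so its sign depended on 1 library.

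Among the neuronal collagens no chain stood apart by genotype. *Col25a1* (chr3:130131501-130599877) was at 1609, 1429.6 and 1463 normalized counts in TG-1, TG-2 and TG-3 and at 1449, 1652 and 1209.8 in WT-1, WT-2 and WT-3. *Col19a1* (chr1:24261890-24587472) was at 995, 817 and 870.0 in TG and at 990.2, 1001 and 891 in WT. The TG libraries of *Col25a1* lay within the WT range, and TG-1 exceeded WT-1 in *Col19a1* while the other TG libraries lay below every WT library. The log2 fold changes were 0.07 (SE 0.12, 95% interval -0.21 to 0.35) for *Col25a1* and -0.11 (SE 0.10, 95% interval -0.34 to 0.13) for *Col19a1*. With 1 library left out *Col19a1* was at -0.19 (without TG-1) to -0.045 (without TG-2). *Col23a1* was at 217, 391 and 216 in TG and at 224, 195 and 228 in WT. Only TG-2 was high, and the log2 fold change of 0.29 was 0.01 without it. The median over the class was 0.07, which was -0.03 without the libraries numbered 3. Its median residual SD (0.17) was near that of all genes, against 0.25 for fibrillar and 0.27 for basement membrane chains. By chain the residual SD was 0.12 for *Col19a1*, 0.17 for *Col25a1* and 0.36 for *Col23a1*, so the class was not uniform.

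Type VI collagen forms beaded filaments around vessels and in the meninges. *Col6a1* was at 1595, 2457 and 1750.2 normalized counts in TG-1, TG-2 and TG-3 and at 2264, 1742 and 1852 in WT-1, WT-2 and WT-3. *Col6a2* was at 545, 610.4 and 609 in TG and at 573, 518 and 559.6 in WT, and *Col6a3* at 70.3, 159 and 63.1 and at 62.0, 125 and 74.3. The groups overlapped in each, TG-2 was the highest TG library for all 3 chains, and the log2 fold changes were -0.03, 0.10 and 0.10. *Col6a2* had the narrowest interval of these (-0.12 to 0.31). *Col18a1*, a multiplexin of basement membranes and the source of endostatin, was at 157, 208 and 159 in TG and at 186, 131 and 135 in WT. WT-1 lay among the TG libraries, and the fold change on the log2 scale was 0.22 (SE 0.18, 95% interval -0.21 to 0.65). It was 0.09 without TG-2, 0.13 without WT-2 and 0.38 without WT-1.

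The following 3 members were chosen after their values had been seen, the first 2 because of the block fit and the last because of its range. *Col9a3* (chr2:180597790-180622189), a chain of the type IX collagen that sits on fibril surfaces, was at 297, 214 and 222 normalized counts in TG-1, TG-2 and TG-3 and at 342, 315 and 260.0 in WT-1, WT-2 and WT-3. It was lower in TG at each number, TG-1 lay above WT-3, and the log2 fold change was -0.33 (SE 0.17, 95% interval -0.71 to 0.06). With the block the 95% interval was -0.58 to -0.08, which excludes 0, and the adjusted p was 0.837 (limma). *Col17a1* (chr19:47646344-47692094), the membrane collagen of skin hemidesmosomes, was at 92.7, 85.1 and 57.5 in TG and at 84.4, 17.9 and 35.7 in WT. WT-2 and WT-3 were low and WT-1 lay among the TG libraries, with a log2 fold change of 1.00 (SE 0.50, 95% interval -0.17 to 2.16). It was 0.47 without WT-2 and 1.56 without WT-1. With the block the 95% interval of *Col17a1* was 0.19 to 1.80, which excludes 0, and the adjusted p was 0.892 (limma). *Col7a1*, the anchoring fibril of skin, was at 89.6, 248 and 83.8 in TG and at 552, 143 and 139 in WT. WT-1 stood far above the others, and the log2 fold change of -0.85 was -0.19 without it. For the remaining 18 tested members the log2 fold changes lay between -0.37 (*Col6a6*) and 0.34 (*Col14a1*). With 1 library left out *Col6a6* was at -0.66 to -0.10 and *Col14a1* at -0.15 to 0.63.

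Chains of the same trimer were compared within each library as a ratio of normalized counts, a measure in which a shift common to both chains cancels. The ratio of *Col4a1* to *Col4a2* was between 0.682 and 0.775 over the 6 libraries, a range of 0.18 on the log2 scale, against 0.59 and 0.64 for the chains alone. The pair therefore moved together from library to library. *Col4a3* and *Col4a4*, which are also partners, did not: their ratio was between 0.534 (TG-1) and 2.21 (WT-3), a log2 range of 2.05. These chains had at most 51.0 normalized counts. The ratio of *Col1a1* to *Col1a2* was 0.602, 0.615 and 0.488 in TG-1, TG-2 and TG-3 and 0.447, 0.50 and 0.450 in WT-1, WT-2 and WT-3. It was higher in TG at each number, but TG-3 lay below WT-2, so the groups overlapped. The ratio of *Col9a3* to *Col9a2*, another chain of type IX, was 2.15, 1.13 and 1.53 in TG and 2.17, 2.39 and 2.36 in WT. All TG libraries lay below all WT libraries, TG-1 and WT-1 by little, and this pair was picked out of 10 ratios after the values had been seen. An exact permutation test of 3 libraries against 3 cannot fall below 0.1, so this ratio out of 10 is not read as a genotype difference.

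**Figure D5:**
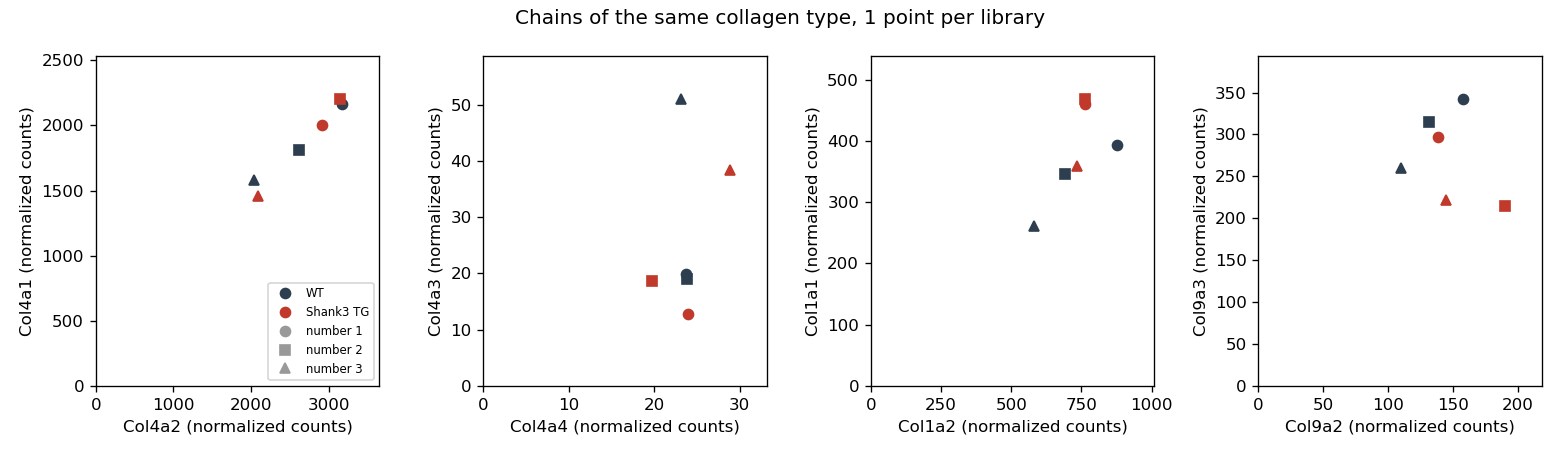
Normalized counts of chains of the same collagen type are plotted against each other with 1 point per library, dark for WT and red for *Shank3* TG, and symbols for the replicate numbers (both axes linear, from 0). The points of *Col4a1* and *Col4a2* follow a line (ratios 0.682 to 0.775), and *Col4a3* is highest in the libraries numbered 3 at similar levels of *Col4a4*.

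Both of these type IV pairs are arranged head to head. The annotated starts of *Col4a1* and *Col4a2* overlap by 22 bases on chromosome 8, and those of *Col4a4* and *Col4a3* lie 71 bases apart on chromosome 1. *Col4a6* and *Col4a5*, on the X chromosome, are 1308 bases apart. The ratio of *Col4a5* to *Col4a6* was between 1.33 (TG-3) and 2.60 (TG-2). Its log2 range was 0.97, against 0.61 and 0.52 for the chains alone, so this pair did not move together either. The whole interval between *Col4a4* and *Col4a3*, chr1:82586850-82586920 of GRCm38, is shown on the minus strand, the sense of *Col4a4*, because it is all the sequence that separates the starts of a pair whose levels did not move together.
Col4a4-Col4a3 interval: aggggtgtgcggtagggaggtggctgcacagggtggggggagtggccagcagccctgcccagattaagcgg
Of its bases 69.0% are G or C. Neither strand holds CCAAT, the GC box GGGCGG or the TATA box TATAAA, which occur on either strand in 13.3%, 20.7% and 4.4% of 32851 windows of the same length taken upstream of gene starts in the RefSeq promoter sequences. This says only that these letters are not in this window.

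The libraries numbered 3, which deviated together over all genes, held the lowest values of a number of collagens. Of the 43 tested members 14 were lowest in TG-3 among TG libraries and in WT-3 among WT libraries, or 32.6% against 25.3% of all tested genes, and 1 (*Col4a3*) was highest in both, or 2.33% against 24.9%. The 14 included 7 of the 11 fibrillar chains (*Col1a1*, *Col1a2*, *Col3a1*, *Col5a2*, *Col11a1*, *Col24a1* and *Col27a1*), 3 of the 6 basement membrane chains (*Col4a1*, *Col4a2* and *Col4a5*) and 0 of the 3 neuronal chains. Both genotypes have such a library. Without TG-3 and WT-3 the median log2 fold changes were 0.01 for fibrillar, -0.03 for basement membrane and -0.03 for neuronal chains, and *Col1a1* was at 0.33. The fibrillar chains were then 7 higher and 4 lower, the basement membrane chains 3 and 3 and the neuronal chains 1 and 2.

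Marker genes of the cells that make collagens were read beside the members. In bulk tissue, fewer cells of a type and less RNA per cell cannot be told apart. The tissue itself was checked on 6 excitatory neuron markers of cortex, which summed to 197455 to 257350.0 in *Shank3* TG and 192973 to 252072 in WT. *Camk2a* and *Nrgn* had the highest counts among them. *Slc17a7* was at 42302, 42776 and 45669 in TG-1, TG-2 and TG-3 and at 39217.5, 40001.5 and 39794 in WT-1, WT-2 and WT-3. It was the 1 marker of the 6 without overlap (beside 6.02% of all genes), with a log2 fold change of 0.13 (SE 0.07). A higher mean log2 value in TG was found in 48.6% of all tested genes and in all 11 leptomeningeal fibroblast markers. Of these 7 had an unadjusted p under 0.05 (beside 2.01% of all genes), or 8 with the block (beside 4.98%), and 7 showed no overlap between the groups (beside 6.02%), while 0 had an adjusted p under 0.05 (limma). Their sum was 4815 to 5688 in *Shank3* TG and 3996 to 4288 in WT, with no overlap, and none of the markers was at 0. The log2 fold changes of the most abundant per kb were 0.24 with an SE of 0.09 for *Igf2*, 0.32 with an SE of 0.09 for *Fmod* and 0.13 with an SE of 0.16 for *Dcn*, which encodes a proteoglycan that binds type I collagen. These fibroblasts make type I and type III collagen, and *Col1a1* also had a higher mean log2 value in TG without passing the test, with overlap between the groups, as 4 of the 11 markers had. The TG libraries of *Col1a2* and *Col3a1* lay within the WT range. The part of the fibroblast markers in the *Col1a1* values was not tested.

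The signs were mixed in the markers of endothelium, of pericytes and smooth muscle and of astrocytes. The 10 endothelial markers had a higher mean log2 value in 6 and a lower one in 4, 0 with an unadjusted p under 0.05, and summed to 10795 to 11517 in *Shank3* TG and 10192 to 11919.7 in WT. That sum includes *Pecam1*, which was at 2359 in TG-3 and 2559.8 in WT-3 against 657 to 811 in the other libraries. By the same measure the 10 markers of pericytes and smooth muscle were 5 higher and 5 lower, 0 with an unadjusted p under 0.05, at 6717 to 8383 in *Shank3* TG and 7208 to 8541 in WT, and the 8 astrocyte markers were 4 higher and 4 lower. The 6 border macrophage markers all had a higher mean log2 value in TG, 1 of them with an unadjusted p under 0.05 (beside 2.01% of all genes), or 2 with the block (beside 4.98%), and 0 with an adjusted p under 0.05, at 402 to 506 in *Shank3* TG and 314 to 437 in WT. Oligodendrocyte markers had a lower mean log2 value in TG in 9 of 9, 8 with an unadjusted p under 0.05 (beside 2.01% of all genes), or 9 with the block (beside 4.98%), and 0 with an adjusted p under 0.05, at 45046 to 58907 in *Shank3* TG and 65436 to 77620.1 in WT. In the remaining lists (oligodendrocyte precursors, inhibitory neurons, excitatory neurons, deep cortical layers, striatal neurons, choroid plexus and microglia) 1 gene, of the choroid plexus, had an unadjusted p under 0.05, and with the block 1 of the deep layers also did.

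Genes that modify, export, cleave, crosslink, bind and degrade collagen were taken as 7 lists of 63 genes, of which 59 were tested. Of these 32 had a higher and 27 a lower mean log2 value in TG, and 2 had an unadjusted p under 0.05 (3.39%, beside 2.01% of all genes), both higher in TG, while 0 had an adjusted p under 0.05. With the block 9 did (15.3%, beside 4.98%), again with 0 at an adjusted p under 0.05. The pair in the fit without the block were *Pcolce*, which enhances removal of the C-propeptide of procollagens, with a log2 fold change of 0.41 (SE 0.15), and *Nid1*, which links laminin to type IV collagen in basement membranes, with 0.26 (SE 0.09). *Pcolce* was at 194, 206 and 256 normalized counts in TG-1, TG-2 and TG-3 and at 177, 142 and 173 in WT-1, WT-2 and WT-3. *Nid1* was at 382, 412 and 395 in TG and at 318, 335 and 339 in WT. In both genes, picked by their p-values, all TG libraries lay above all WT libraries. Of the other pathway genes, *Bgn* and *Mmp14* (higher in TG) and *Ctsk* (lower in TG) also showed no overlap. Over all tested genes 6.02% showed none.

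The signs of the fold changes were counted by list, beside 48.6% of all tested genes with a higher mean log2 value in TG. Differences between the lists were not tested. All 8 fibril-binding and basement membrane matrix genes had a higher mean log2 value in TG (median log2 fold change 0.19). Among them *Fn1*, the fibronectin gene, was at 0.16 with an SE of 0.12 and the proteoglycan gene *Bgn* at 0.22 with an SE of 0.10. All 4 tested crosslinking enzymes of the lysyl oxidase family also did (median 0.28), with the most abundant per kb, *Loxl3*, at 0.41 with an SE of 0.21. Of the 15 genes of prolyl and lysyl hydroxylation and glycosylation 13 had a lower one (median -0.07; 12 under upper quartile scaling and 11 under quantile normalization). *P4hb*, a subunit of the prolyl 4-hydroxylase that makes the triple helix stable, was at -0.01 with an SE of 0.11 and the prolyl isomerase gene *Ppib* at 0.15 with an SE of 0.13. Chaperone and export genes were 4 higher and 3 lower, propeptide cleavage genes 4 and 4, receptors 5 and 4 and degradation genes 5 and 3. *Mia3* (TANGO1), which loads procollagen for export, was at 0.28 with an SE of 0.18 and the receptor gene *Adgrg1* (GPR56), a type III collagen receptor of the pial surface, at 0.16 with an SE of 0.11. The most abundant per kb of these 2 lists were *Sparc*, at -0.02 with an SE of 0.11, and *Itgb1*, at -0.03 with an SE of 0.08. The 43 collagens stood at 25 higher and 18 lower with a median of 0.02 (58.1% higher, beside 48.6% of all tested genes).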

How the data were processed

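The authors made stranded mRNA libraries, estimated transcript abundance with Salmon 0.9.1 on GRCm38 with GC bias correction, imported it per gene with tximport, and divided it by size factors in DESeq2 1.19.11 under R 3.6.0 (versions also per the submitters' processing notes). The deposited signal is these normalized counts, for 18254 genes in 6 libraries. They are not whole numbers, so reads per library were not recovered, no counting interval was given and no count model was used. Sums were 28363967 to 29447717 per library.

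Genes were named from GENCODE M21 (18215 of 18254 found) and tested at a mean of at least 5 normalized counts (16714 genes) with limma 3.58.1 in R 4.3.3, on log2(normalized count + 1), with genotype as the only term and a trended eBayes. Tests were two-sided, p-values were adjusted after Benjamini and Hochberg, and the threshold was 0.05. P-values set the genotype difference against the residual spread between pools of a genotype, moderated over all genes. In the block fit the residual is what is left after the replicate number. As alternatives the pseudocount was set to 0.1 or 5, the filter was dropped or raised to a mean of 50, libraries were scaled to the same upper quartile or quantile normalized, the trend was dropped, the robust option or a replicate block was added, z-scores were rescaled to a width of 1 (empirical null), and libraries were left out singly or both of number 3 together.

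Deviations from the genotype means correlated across genes between equal replicate numbers (0.30, 0.33 and 0.62 for numbers 1, 2 and 3), so the numbers were taken to pair the libraries. Unequal numbers also correlated between TG-1 and WT-2 (0.27) and between TG-2 and WT-1 (0.23), so that number 3 alone stood clearly apart. The numbers come from the labels, which do not say what libraries of equal number share.

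The values in every library are given for a set list of chains (types I, III and V, the alpha 1 to 3 chains of type VI, the alpha 1 and 2 chains of type IV, and *Col11a1*, *Col18a1*, *Col19a1*, *Col23a1*, *Col24a1*, *Col25a1* and *Col27a1*), for members with an unadjusted p under 0.05 or no overlap (none), and for *Shank3*. Of the pathway lists, genes with an unadjusted p under 0.05 and some of the most abundant were named, and of the marker lists some of the most abundant, with *Pecam1* picked after its values were seen. The members and lists were chosen with earlier results of these data known. RefSeq promoter sequences of GRCm38 served only as windows for motif counts, and 35 of the 44 collagens had one.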

Additional observations from a re-analysis of the deposited data

How the results depend on the processing

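Among 16714 genes the fit called 0 at an adjusted p under 0.05 (336 at an unadjusted p), 1 with the robust option, 1 without both libraries numbered 3, 26 under the empirical null and 0 to 1 when each library was left out in turn. Members with an unadjusted p under 0.05 numbered 0, 5 under the empirical null (beside 7.27% of all genes; *Col1a1*, *Col9a3*, *Col17a1*, *Col20a1*, *Col24a1*), 1 without both libraries numbered 3 (beside 2.81%; *Col1a1*) and 0 to 3 with 1 library left out (beside 1.31% to 2.5%): 3 without WT-1 (*Col1a1*, *Col3a1*, *Col17a1*), 2 without TG-2 (*Col20a1*, *Col24a1*), 1 each without TG-1 and WT-3 (*Col9a3*) and without TG-3 (*Col1a1*), and 0 without WT-2. No member had an adjusted p under 0.05 under any of the 17 settings. In the paired fit with the replicate block, 1 gene of all (*Shank3*) and 4 members at an unadjusted p were called. It raised the genes at an unadjusted p under 0.05 from 336 to 833 over all genes and from 2 to 9 in the pathway lists, and changed no member's adjusted call. The cause of these differences was not tested.

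Across the 6 omissions of 1 library the median log2 fold change of fibrillar chains, -0.039 with all libraries, went from -0.16 without TG-2 to 0.12 without TG-3 (0.014 without both libraries numbered 3), that of neuronal chains went from -0.046 to 0.18 (-0.029 without both libraries numbered 3) and that of basement membrane chains was lowest at -0.075, without WT-3, and highest at 0.047. Of the 43 tested members 24 changed sign with 1 library left out. Of 20 single genes 8 kept their sign under all settings, *Col1a1* (0.21 to 0.50), *Col24a1* (-0.55 to -0.14), *Col9a3* and *Col17a1* among them. The others reversed with 1 library left out, with ranges of -0.17 to 0.034 for *Col5a1*, -0.17 to 0.12 for *Col5a2*, -0.093 to 0.0074 for *Col5a3*, -0.10 to 0.20 for *Col4a1*, -0.11 to 0.23 for *Col4a2*, -0.22 to 0.10 for *Col6a1*, -0.32 to 0.39 for *Col6a3*, -0.27 to 0.15 for *Col11a1*, -0.22 to 0.026 for *Col27a1*, -0.050 to 0.25 for *Col1a2*, -0.20 to 0.90 for *Col3a1* and -0.046 to 0.18 for *Col25a1*. Without both libraries numbered 3 the values that reversed were -0.032 for *Col1a2*, 0.025 for *Col5a1*, 0.014 for *Col5a2*, 0.0078 for *Col27a1* and -0.029 for *Col25a1*.

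Reads per library were not recovered, so counting error could not be separated from the spread between pools.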

Other observations

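*Col15a1*, *Col26a1* and *Col20a1*, which are not among the chains followed by library above, were picked after their values had been seen. *Col26a1*, a small collagen known from testis and ovary, was at 202, 273 and 232 normalized counts in TG-1, TG-2 and TG-3 and at 237, 288 and 296 in WT-1, WT-2 and WT-3, lower in TG at each replicate number, with overlap and a log2 fold change of -0.22 (SE 0.15, 95% interval -0.57 to 0.13). *Col15a1*, a multiplexin of vessel basement membranes, was at 336, 256 and 192 in TG and at 339, 261 and 248 in WT. The differences of TG minus WT at the 3 numbers were -0.01, -0.03 and -0.36 log2 units, so number 3 carried most of it. *Col20a1*, a fibril-associated chain, was at 150.1, 199 and 146 in TG and at 225, 184 and 185 in WT, and TG-2 lay above WT-2. The share of collagens that keep 1 direction at all 3 numbers (16.3%) was below that of all genes (24.8%), and no test of this difference was made.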
